A study of Mus musculus with 6 samples.

Results

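The genes described here encode the machinery of DNA replication: the helicase and the proteins that load and start it, the polymerases, the sliding clamp, the enzymes that join lagging strand fragments, the suppliers of deoxynucleotides and the factors that rebuild chromatin behind the fork. They were taken from a list of 36 gene symbols, and a gene was included when the platform annotation gave a probe set that name alone. In all, 35 of the 36 genes were found among 18193 named genes, and each was read from its probe set with the highest mean over the arrays. Chaf1a, the large subunit of chromatin assembly factor, was not analysed here. The listed genes share a function. Differences between genotypes were no part of the rule, but mean intensity in these arrays chose each probe set. The list was drawn up with earlier results of these data known.

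The study measured RNA of sorted bone marrow erythroblasts on Affymetrix whole-genome mouse arrays, with 1 array for each of 3 mice labelled as knockout for the miR-144 and miR-451 locus (KO) and 3 labelled as wild type (WT). The sorted cells carried Ter119, a mark of the red cell lineage, and CD71, the transferrin receptor, and had high forward scatter, which selects large cells. The arrays are named by the numbers in their titles, WT 497, WT 504 and WT 550 and KO 493, KO 548 and KO 551. Age, strain, sex and litter were not used here, no further treatment is named in the labels, and neither microRNA was analysed here, so the genotypes rest on the labels.

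A dividing cell licenses its origins in G1 by loading the helicase ring onto DNA with the origin recognition complex, Cdc6 and Cdt1. At the start of S phase, cyclin-dependent kinase bound to cyclin E and a partner kinase turn the loaded ring into a moving helicase, and polymerases, clamp and ligase then copy both strands. E2F transcription factors drive many of these genes together at the G1 to S transition. Large CD71-positive erythroblasts are cycling cells that divide several times before they leave the cycle, so replication genes are among the active genes of this population.

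The deleted locus encodes miR-144 and miR-451a, which lie close together on chromosome 11. The mature sequences of miR-144-3p and miR-451a are shown because the KO label names their locus. Capitals mark the seed, bases 2 to 8, through which a microRNA recognises its targets. The other mature products annotated there, miR-144-5p and miR-451b, are not shown. The sequences come from RefSeq, build GRCm38.p6, plus strand, at chr11:78073047-78073066 for miR-144-3p and chr11:78073186-78073207 for miR-451a.
miR-144-3p: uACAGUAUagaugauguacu
miR-451a: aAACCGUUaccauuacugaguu
The seeds differ, and target sites in the replication genes were not searched here.

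Because E2F factors are the textbook regulators of this group, the 250 bases before each RefSeq start were searched on both strands for TTTCCCGC, TTTGGCGC, TTTCGCGC and TTTGCCGC, the spellings of one E2F consensus. A window was held for 29 of the 35 genes, and 9 of these (31.0%) had at least 1 of the spellings, against 583 of all 27025 genes with such a window (2.16%). The 9 genes were Orc1, Cdc6, Mcm5, Mcm6, Mcm7, Gins3, Pola1, Rfc3 and Uhrf1. Below are 100 bases from 4 of them: Orc1, which had the largest difference between genotypes, and Cdc6, Mcm5 and Gins3, which had small ones. Capitals mark the E2F spelling, on either strand and overlapping in Mcm5. The stretches are on the plus strand of GRCm38.p6, at chr4:108579354-108579453 for Orc1, chr11:98907963-98908062 for Cdc6, chr8:75109306-75109405 for Mcm5 and chr8:95633459-95633558 for Gins3.
Orc1: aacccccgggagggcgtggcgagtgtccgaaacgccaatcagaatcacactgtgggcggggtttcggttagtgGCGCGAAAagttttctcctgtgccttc
Cdc6: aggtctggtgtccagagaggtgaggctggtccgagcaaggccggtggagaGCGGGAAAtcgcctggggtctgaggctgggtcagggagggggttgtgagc
Mcm5: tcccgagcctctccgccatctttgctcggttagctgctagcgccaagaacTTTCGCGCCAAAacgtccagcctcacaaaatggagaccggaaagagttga
Gins3: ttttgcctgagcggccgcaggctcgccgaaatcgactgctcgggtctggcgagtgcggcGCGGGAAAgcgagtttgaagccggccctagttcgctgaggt
These are matches of letters, not measured binding. The difference between genotypes had a median of -0.09 (log2) over the 9 genes with an E2F spelling, ranging from -0.61 to 0.06, and of -0.07 over the 20 without one, ranging from -0.22 to 0.08. Orc1 alone set the lower end of the range with the spelling. The others ran from -0.13 (Uhrf1) to 0.06 (Gins3), inside the range without it. The box CCAAT, bound by NF-Y, was found in 18 of the 29 windows (62.1%, against 37.5% of all genes). The letters GGGCGG, bound by SP and Kruppel-like factors, stood in 20 of them (69.0%, against 35.4%). AGATAA or TGATAA, which GATA factors bind, stood in 2 (6.90%, against 18.8%).

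Across the series the arrays were alike: the mean correlation of an array with others of its genotype was 0.986 to 0.990. The second principal component, with 21.9% of the variance, set WT 497 and KO 493 apart from the other 4 arrays, so results are also given without them. Of 14 erythroid markers, 10 were measured, among them the transferrin receptor gene Tfrc, Gata1 and Klf1. Their mean log2 intensity lay from 12.27 to 12.36 on WT arrays and from 12.18 to 12.23 on KO arrays, and none lay under the 25th percentile of a WT array. Markers of other blood cells were also above that percentile in WT and mostly lower in KO.

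Every measured replication gene was read well above the median intensity of the arrays in both genotypes, and none passed the test. Each was read from its brightest probe set, a choice that favours high intensity. Some dimmer probe sets of these genes lay below that median. None of the 35 genes passed an adjusted p of 0.05 in the limma fit, where 0.385% of all 18193 genes did (0.148% lower and 0.236% higher in KO). At an unadjusted p under 0.05 there were 2 of 35 (5.71%), Orc1 and Ccne2, both lower in KO. The share of all genes was 21.0% (12.7% lower and 8.34% higher). This count depended on the variance model, since an intensity trend with a robust prior gave 7 of 35, all lower. The share of all genes at that p was not counted under that setting. Values are log2 intensities, differences are KO minus WT on that scale, and standard errors (SE) are limma's. SDs are over 3 mice. The median difference was -0.07, which corresponds to 95.5% of the WT intensity, beside -0.04 over all genes and 0.02 over the 5354 genes whose mean intensity lay in the same range.

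The spread of these differences was narrow in the brightest probe sets. Of the 35 genes, 34 differed by at most 0.3 in either direction (97.1%), a width that held 71.0% of all genes and 76.5% of those in the same range of intensity. The median absolute difference was 0.07, against 0.18 over all genes. Dimmer probe sets of some genes differed more. With a gene's probe sets averaged, Orc1 (-0.61), Pola1 (-0.55, with a second probe set near the bottom of the scale) and Uhrf1 (-0.33) lay beyond 0.3. The share of all genes within 0.3 was not counted under that setting. In the brightest probe sets, the median SD within a genotype was 0.07 for replication genes, 0.17 for all genes and 0.11 for genes of the same intensity range. That range ran from 8.97 to 12.94, and its genes were not matched to the replication genes in intensity within it. The median of the replication genes on an array was 11.48 to 11.59. The 95% interval of the difference held 0 for 33 of the 35 genes, and for 33 it lay wholly within 0.5 of 0. These intervals bound what the arrays could miss and do not show that the genotypes were equal.

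**Figure D1:**
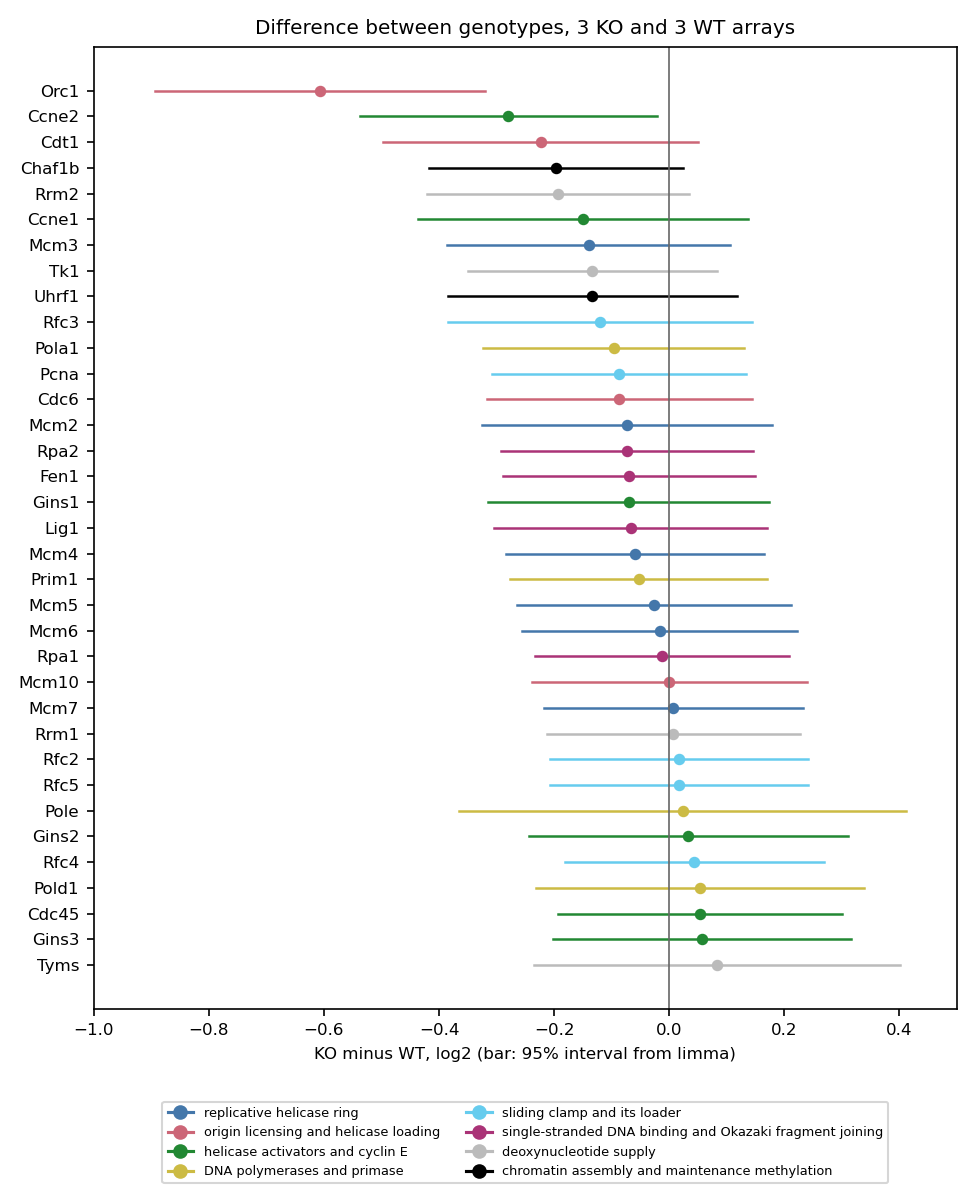
Difference between genotypes for the 35 measured replication genes (KO minus WT, log2 intensity), ordered by size. Points are differences of means over 3 KO and 3 WT arrays, bars are 95% intervals from limma, and colours mark the role of each gene. The interval misses 0 for Orc1 and Ccne2, and the other 33 intervals hold 0.

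**Figure D2:**
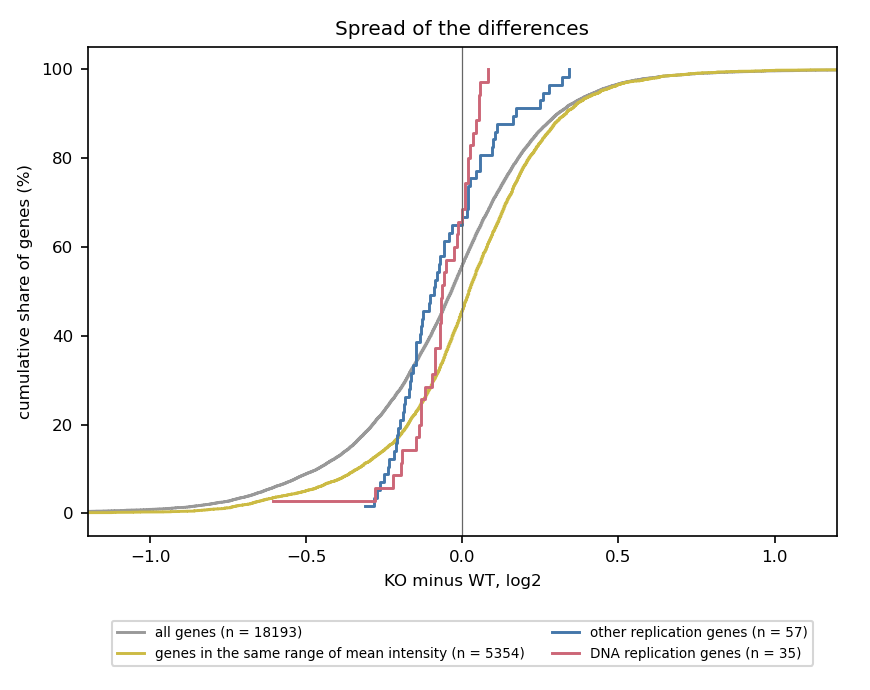
Cumulative share of genes (vertical axis, percent) with a difference at or below the value on the horizontal axis (KO minus WT, log2), for the 35 replication genes, 57 other replication genes, 5354 genes of the same intensity range and all 18193 genes. The horizontal axis is cut at 1.2 on each side. Each gene is read from its brightest probe set. The curve of the replication genes is steep, with 34 of 35 genes within 0.3 of 0.

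The small differences leaned to one side. With the deposited normalization 23 genes were lower in KO, 11 higher and 1 equal, where 55.7% of all genes were lower, but with every array centred on its own median 10 were lower and 25 higher, with a median of 0.043, and 13 genes changed sign. That centring moved the median of all genes by 0.11, from -0.04 to 0.073. The median of the replication genes lay below that of all genes in both settings. This shift arose because the median intensity of the KO arrays was 5.62 to 5.68 and that of the WT arrays 5.73 to 5.78. Quantile and cyclic loess normalization left the median of the replication genes below 0, at -0.06 and -0.08. Taken as the mean log2 intensity over the 35 genes, the KO arrays stood at 11.36 to 11.39 and the WT arrays at 11.44 to 11.45. In 10 genes (28.6%) all 3 KO arrays lay below all 3 WT arrays, against 16.2% of all genes, and in 0 genes all KO arrays lay above, against 12.5% of all genes. Median centring turned these counts to 2 below and 7 above, where all genes gave 8.83% below and 22.1% above. Quantile and cyclic loess normalization gave 10 and 13 below, against 12.6% and 14.1% of all genes. With the deposited normalization the 10 genes were Orc1, Cdt1, Ccne2, Pola1, Pcna, Rpa2, Fen1, Rrm2, Tk1 and Chaf1b. Leaving out KO 548 raised the count below to 16, against 21.7% of all genes, and leaving out WT 497 and KO 493 together gave 14, against 25.7%.

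These differences coincided with lower signals of other blood cells in the sort. Of 12 measured neutrophil markers, 12 were lower in KO, with a summed linear intensity of 44798 to 50231 in KO and 51944 to 58214 in WT. B lineage markers were lower in 9 of 10, with sums of 4339 to 5732 in KO and 5919 to 10198 in WT. T and NK markers were lower in 7 of 8 (985 to 1315 in KO, 1655 to 2558 in WT). Macrophage markers were lower in 9 of 10 (7761 to 8712 in KO, 9488 to 11578 in WT). Megakaryocyte markers were lower in 4 of 7, with overlapping sums of 6239 to 7517 and 6646 to 7053. None of these markers lay under the 25th percentile of a WT array. The actin control signal at the 3' end exceeded that at the 5' end by 1.65 to 1.67 (log2) in WT and 1.82 to 1.86 in KO. Erythroid markers were lower in 9 of 10, with a mean difference of -0.11. The part of other cells and of RNA quality in the replication result was not tested, and in bulk samples fewer cells of a type and less RNA per cell cannot be told apart.

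**Figure D3:**
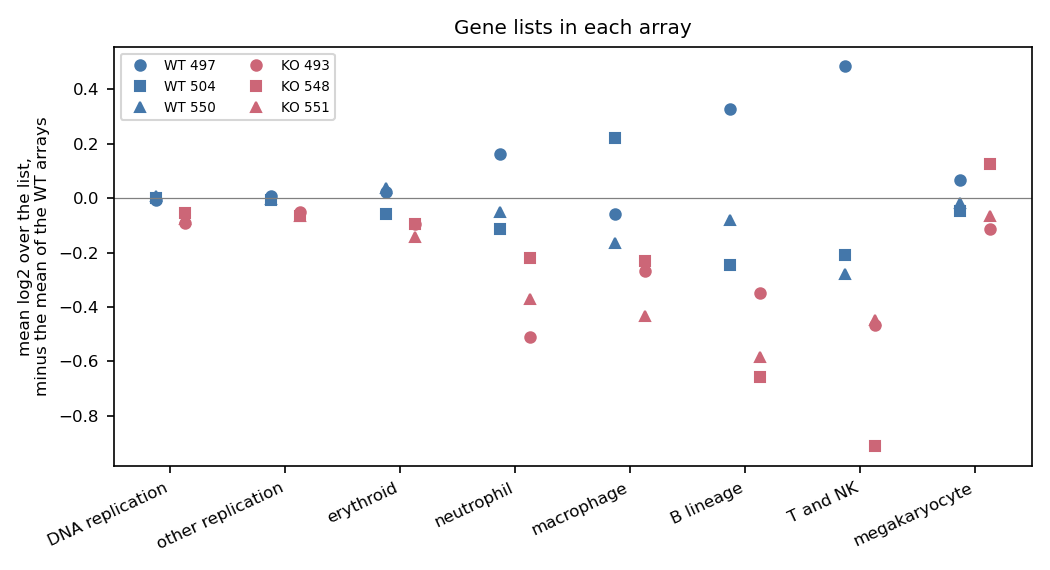
Mean log2 intensity over each gene list, minus the mean of the 3 WT arrays (vertical axis), for each of the 6 arrays. Blue symbols are WT and red symbols KO arrays. The replication genes of the 3 KO arrays lie below those of the WT arrays, as does every other list shown except the megakaryocyte markers. The B lineage and T and NK markers spread more widely.

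Origin licensing held the gene with the largest difference. Orc1, an ATP-binding subunit of the origin recognition complex, stood at 9.76, 10.01 and 9.77 in WT 497, 504 and 550 and at 9.13, 9.24 and 9.35 in KO 493, 548 and 551. The groups were well separated, with the highest KO array below the lowest WT array. The difference was -0.61 ± 0.12 (SE, n = 3 per group), or 65.7% of WT with a 95% interval of 53.8% to 80.1%, and it missed the threshold (limma, adjusted p = 0.0884). A second probe set of Orc1, read at lower intensity, gave 7.88, 8.18 and 8.22 in WT and 7.60, 7.21 and 7.61 in KO. Its difference was -0.62 ± 0.16 (adjusted p = 0.128), close to that of the first. Orc1 was called under other settings of the same test, namely an intensity trend with a robust prior (adjusted p = 0.0228) and a filter on dim probe sets (adjusted p = 0.0390). Those settings called 4.42% and 4.39% of all genes they tested, against 0.385% without them. Without any one mouse the difference lay between -0.66 and -0.53, with adjusted p between 0.137 and 0.219.

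The subunits of the origin recognition complex had no common direction. Those beside Orc1, all of them on the wider list, were at 0.16 ± 0.10 (Orc2), 0.10 ± 0.11 (Orc3), 0.00 ± 0.13 (Orc4), 0.32 ± 0.11 (Orc5) and -0.19 ± 0.12 (Orc6), and none was called. They are named as the full complex, a choice made after their values were seen, and whether Orc1 differs from them was not tested.

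Cdt1, which brings the helicase ring to the origin and is destroyed in S phase, read 12.19, 12.26 and 12.22 in WT and 11.91, 12.18 and 11.91 in KO. KO 548 lay just below the lowest WT array, and the other KO arrays were clearly lower. The difference was -0.22 ± 0.12 (limma, adjusted p = 0.333). A second probe set of Cdt1 read 10.85, 10.99 and 11.07 in WT and 10.55, 10.89 and 10.49 in KO, with KO 548 inside the WT values and a difference of -0.33 ± 0.14. Cdc6, the ATPase that helps load the ring, was at -0.09 ± 0.10. Mcm10, a factor needed to start the helicase, had a mean of 11.07 in both genotypes.

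The subunits of the helicase ring had small differences. They were at -0.07 ± 0.11 (Mcm2), -0.14 ± 0.10 (Mcm3), -0.06 ± 0.09 (Mcm4), -0.03 ± 0.10 (Mcm5), -0.02 ± 0.10 (Mcm6) and 0.01 ± 0.09 (Mcm7), and 0 of the 6 had separate groups. Mcm7 read 12.44, 12.46 and 12.50 in WT and 12.46, 12.53 and 12.43 in KO, so that the KO values ran from just below to just above the WT values. Its 95% interval ran from 86.0% to 117% of the WT intensity. Mcm3 had the largest difference of the ring, with 11.23, 11.16 and 11.30 in WT and 11.00, 11.17 and 11.10 in KO (limma, adjusted p = 0.491). Here KO 548 lay just above the lowest WT array. The 4 further probe sets of Mcm3 gave -0.17 to -0.04.

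**Figure D4:**
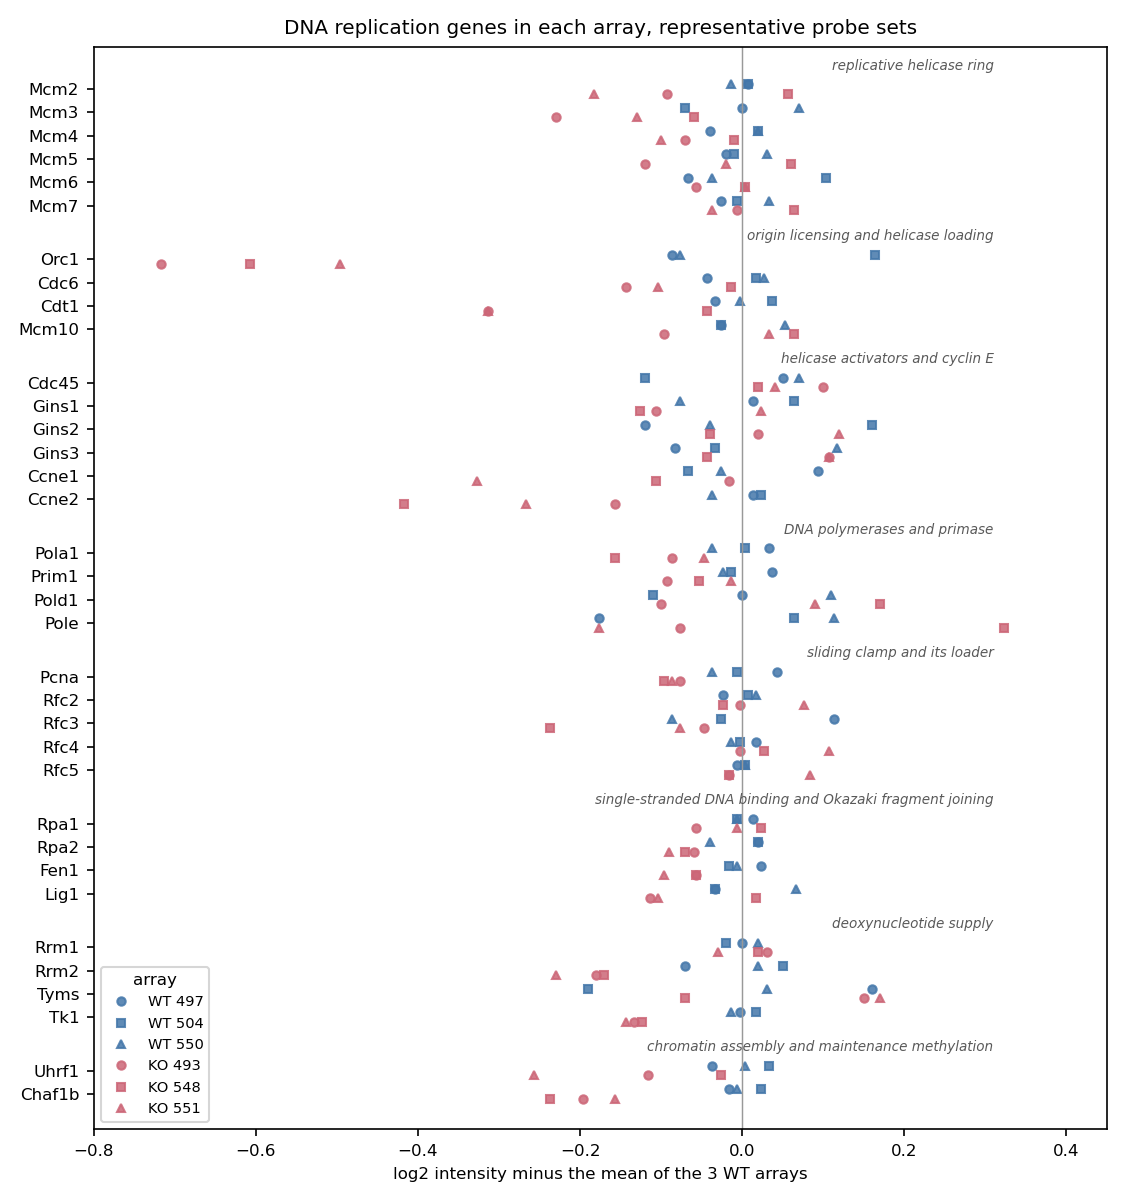
Each replication gene in each of the 6 arrays, as log2 intensity of its representative probe set minus the mean of the 3 WT arrays (horizontal axis), grouped by role. Blue symbols are WT and red symbols KO arrays, with 1 symbol shape per mouse. Orc1 is the gene with the widest gap between genotypes, and among the helicase genes the KO 548 square lies right of the other KO symbols in 5 of 6 rows.

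Among the factors that switch the ring on, the larger values were those of the cyclins. Ccne2, one of the E-type cyclins that activate the kinase Cdk2, read 11.07, 11.08 and 11.02 in WT and 10.90, 10.64 and 10.79 in KO. The groups did not overlap, and the spread among KO mice (SD 0.13) was wider than among WT mice (SD 0.03). The difference was -0.28 ± 0.11, or 82.4% of WT with an interval of 68.9% to 98.5%, and was not called (limma, adjusted p = 0.225). Ccne1, the other E-type cyclin, read 11.62, 11.46 and 11.50 in WT and 11.51, 11.42 and 11.20 in KO. Its groups overlapped, with a difference of -0.15 ± 0.12 (adjusted p = 0.531), and its second probe set was at -0.19 ± 0.13.

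Cdc45 and the GINS proteins complete the moving helicase. Cdc45 was at 0.05 ± 0.10, Gins1 at -0.07 ± 0.10, Gins2 at 0.03 ± 0.12 and Gins3 at 0.06 ± 0.11. Gins1 read 11.61, 11.66 and 11.52 in WT and 11.49, 11.47 and 11.62 in KO, so that KO 551 stood among the WT values, and the sign turned when its probe sets were averaged (0.11) or arrays were centred on their medians (0.040). A dimmer probe set of Cdc45 was at -0.36 ± 0.15 with separate groups (limma, adjusted p = 0.251), so the 2 probe sets of this gene pointed opposite ways, and their mean was at -0.15. Gins4, the remaining subunit, was at -0.03 ± 0.11.

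None of the polymerase and primase genes had a difference beyond 0.10 in its representative probe set. Pola1, the catalytic subunit of polymerase alpha, read 11.18, 11.15 and 11.11 in WT and 11.06, 10.99 and 11.10 in KO. The groups were separate by the smallest step the values allow, 11.10 against 11.11, and the difference was -0.10 ± 0.10 (limma, adjusted p = 0.616). Median centring turned it to 0.013. A second Pola1 probe set was at -1.01 ± 0.18 (adjusted p = 0.0779), the lowest adjusted p of the 77 probe sets of these genes, but its means of 4.47 in WT and 3.46 in KO lay at the bottom of the scale, where the 25th percentile of the arrays is 4.30 to 4.40. Prim1, the primase that lays the RNA starter, read 12.50, 12.45 and 12.44 in WT and 12.37, 12.41 and 12.45 in KO, a difference of -0.05 ± 0.09. Pold1, the main lagging strand polymerase, was at 0.05 ± 0.12 and Pole, its leading strand counterpart, at 0.02 ± 0.16. Pole had the widest spread among KO mice of all 35 genes (SD 0.26), with 10.46, 10.86 and 10.36 in KO 493, 548 and 551.

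Pcna, the sliding clamp that holds polymerases on DNA, read 13.03, 12.98 and 12.95 in WT and 12.91, 12.89 and 12.90 in KO. All KO values were lower, but the difference was only -0.09 ± 0.09 (limma, adjusted p = 0.647), or 94.2% of WT with an interval of 80.8% to 110%. The clamp loader subunits were at 0.02 ± 0.09 (Rfc2), -0.12 ± 0.11 (Rfc3), 0.04 ± 0.09 (Rfc4) and 0.02 ± 0.09 (Rfc5), and Rfc1 on the wider list at 0.02 ± 0.09. Rfc3 read 9.94, 9.80 and 9.74 in WT and 9.78, 9.59 and 9.75 in KO, with only KO 548 below every WT array.

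Genes for single-stranded DNA binding and fragment joining had differences from -0.07 to -0.01, all 4 of which were above 0 with median centring. Fen1, the nuclease that trims lagging strand flaps, read 12.94, 12.90 and 12.91 in WT and 12.86, 12.86 and 12.82 in KO. The groups were separate with a difference of -0.07 ± 0.09 (limma, adjusted p = 0.717), and a dimmer probe set was at -0.19 ± 0.10. Rpa1 and Rpa2, subunits of the protein that coats single-stranded DNA, were at -0.01 ± 0.09 and -0.07 ± 0.09. A dimmer probe set of Rpa2 was at -0.29 ± 0.10 (adjusted p = 0.196). Lig1, which seals the fragments, was at -0.07 ± 0.10.

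The genes of deoxynucleotide supply had differences from -0.19 to 0.08 in their representative probe sets, and all 4 were below 0 when the probe sets of a gene were averaged. Rrm2, the small subunit of ribonucleotide reductase whose level follows the cell cycle, read 12.59, 12.71 and 12.68 in WT and 12.48, 12.49 and 12.43 in KO. All KO arrays were below all WT arrays, with a difference of -0.19 ± 0.10 (limma, adjusted p = 0.319). Both further probe sets also had separate groups, at -0.15 ± 0.10 and -0.31 ± 0.13, and the intensity trend with a robust prior called Rrm2 (adjusted p = 0.0474, with 4.42% of all genes called). Rrm1, the large subunit, was at 0.01 ± 0.09, with WT and KO values interleaved, but its further probe sets were at -0.10 ± 0.10 and -0.24 ± 0.16. Tk1, the thymidine salvage kinase, read 11.99, 12.01 and 11.98 in WT and 11.86, 11.87 and 11.85 in KO, a difference of -0.13 ± 0.09 (adjusted p = 0.459). The Tk1 arrays agreed closely within each genotype, with SDs of 0.02 and 0.01, and the SE is larger because limma moderates each variance toward that of the whole array. Tyms, thymidylate synthase, was the highest of the 35 differences at 0.08 ± 0.13, with overlapping groups. Its 3 dimmer probe sets were at -0.33 ± 0.22, -0.27 ± 0.63 and -0.09 ± 0.24, and the mean over its probe sets was at -0.15, so no direction can be given for Tyms.

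In chromatin assembly, Chaf1b, the middle subunit of the histone chaperone that deposits histones behind the fork, read 10, 10.04 and 10.01 in WT and 9.82, 9.78 and 9.86 in KO. The groups were separate, with a difference of -0.20 ± 0.09 (limma, adjusted p = 0.297). Uhrf1, which guides maintenance DNA methylation after replication, read 12.01, 12.08 and 12.05 in WT and 11.93, 12.02 and 11.79 in KO, and KO 548 lay within the WT values. Its difference was -0.13 ± 0.11 (adjusted p = 0.522). A dimmer probe set of Uhrf1 had separate groups and a larger difference, -0.53 ± 0.15 (adjusted p = 0.15).

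**Figure D5:**
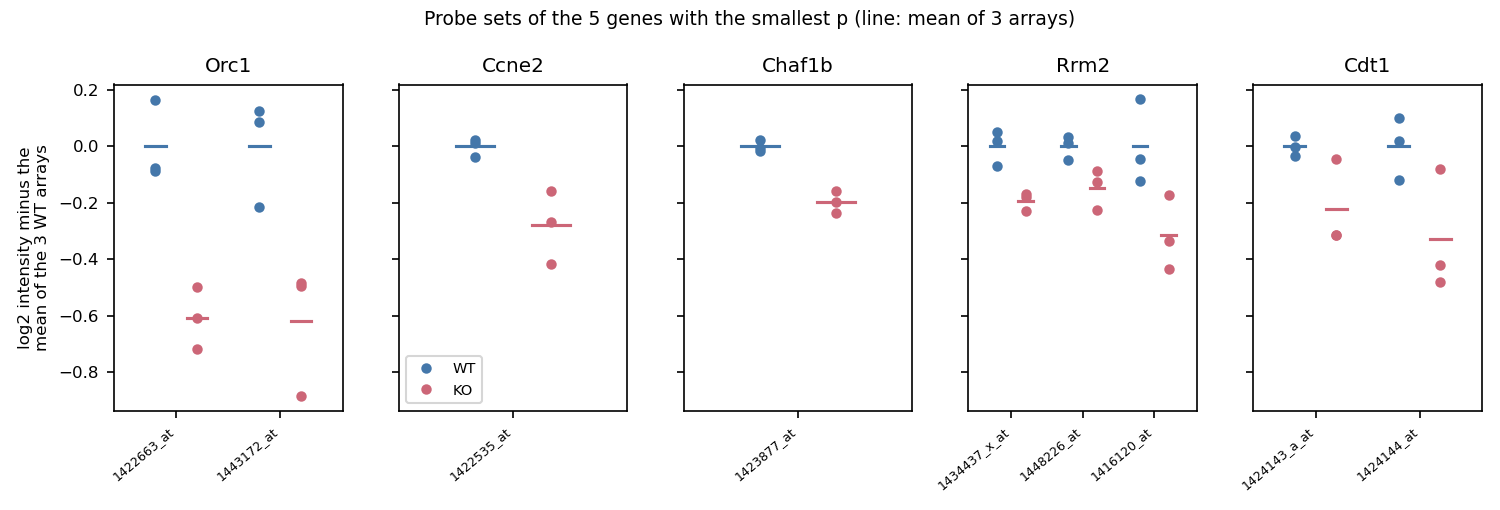
The 5 replication genes with the smallest limma p, with each probe set above the median intensity of all probe sets shown by its identifier, as log2 intensity minus the mean of the 3 WT arrays (vertical axis, shared by all panels). Points are single arrays and lines are means of 3. Both probe sets of Orc1 lie about 0.6 lower in KO, and those of the other genes lie 0.15 to 0.33 lower.

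The 35 genes were covered by 77 probe sets, of which 55 were lower in KO, 19 higher and 3 equal. An unadjusted p under 0.05 was reached by 8 of the 77, all lower, and none was called by limma. That is 10.4%, against 19.8% of all 45037 probe sets, of which 0.355% were called. Of 26 genes with more than 1 probe set above the median intensity of all probe sets, 14 had every such probe set lower, 1 (Rfc4) every one higher, and 11 had mixed signs or a value at 0. Probe sets of one gene share its RNA and are not replicates.

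The order of the KO mice was not the same from role to role. KO 548 was the highest KO array in 5 of 6 helicase genes, with a tie in Mcm6. It was also the highest in 3 of 4 licensing genes, Cdc6, Cdt1 and Mcm10. Mcm10, needed to start the helicase, was counted here with licensing. In the group of helicase activators and cyclin E it was the lowest KO array in 5 of 6 genes, and in the clamp group in 3 of 5. In the other roles it was the highest KO array in 2 of 4 polymerase, 2 of 4 lagging strand, 2 of 4 nucleotide and 1 of 2 chromatin genes. A WT array did likewise, since WT 497 was the lowest WT array in 4 of 6 helicase and 3 of 4 licensing genes. Over all 35 genes KO 548 was the highest KO array in 15 and the lowest in 11. The SD was larger in KO than in WT for 24 of the 35 genes, whereas 43.5% of all genes had the larger SD in KO. Whether the order of the mice depends on role was not tested.

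The rest of the pathway was read from a list of 60 further replication genes, written from general knowledge, of which 57 were measured. None was called by limma (background 0.385%), and 7 had an unadjusted p under 0.05 (12.3%, against 21.0% of all genes), 3 lower and 4 higher. In all, 37 were lower, 19 higher and 1 equal, with a median of -0.09 that became 0.02 with median centring. The median of all genes went from -0.04 to 0.073 with that centring. All KO arrays lay below all WT arrays in 18 of the 57 (31.6%, against 16.2% of all genes) and above in 7 (12.3%, against 12.5%). With median centring these counts were 1 below and 12 above, where all genes gave 8.83% below and 22.1% above.

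The 6 genes of this list with the smallest p went both ways. Donson, a replisome factor that protects forks, was lower, with 10.66, 10.64 and 10.73 in WT and 10.41, 10.36 and 10.32 in KO (-0.31 ± 0.10, limma adjusted p = 0.162). Mcmbp, which binds and stabilises helicase subunits, was at -0.28 ± 0.11 (adjusted p = 0.225). On the other side stood Rnaseh2a, the catalytic subunit of the enzyme that removes ribonucleotides from DNA, at 0.34 ± 0.13, and Orc5 at 0.32 ± 0.11. Mcm8, a helicase of repair and replication outside the main ring, was at 0.28 ± 0.10. Top1, the topoisomerase that relieves twist ahead of the fork, read 11.07, 11.02 and 11.06 in WT and 11.31, 11.30 and 11.31 in KO, a difference of 0.26 ± 0.09 (adjusted p = 0.202). Top1 had the tightest KO values of these, all above every WT array. With the intensity trend and robust prior Top1 (adjusted p = 0.0401) and Donson (adjusted p = 0.0468) were called, as were 4.42% of all genes.

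Since the deleted locus lies on chromosome 11, the position of the replication genes was checked against it. By RefSeq chromosome, 3 of the 35 lie there: Rpa1, 54 measured genes from the locus, Cdc6, 307 genes away, and Tk1, 643 genes away. Their differences were -0.01, -0.09 and -0.13, inside the range of the genes on other chromosomes.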

How the data were processed

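Per the submitters' processing notes, the deposited intensity values are RMA output. The software, version and background step were not given in the sources used here. RMA normally equalises the arrays' distributions, which can hide a change shared by most RNAs. The values were linear, and all of them (100%) matched 2 raised to an exponent of 2 decimals within 0.0051, so they were returned to that log2 scale with no pseudocount or further normalization. Of 45101 probe sets, 64 controls were left out. Of the 45037 tested, 34945 had 1 gene in GEO's platform annotation, 932 several and 9160 none. A gene was represented by its brightest probe set. RefSeq (GRCm38.p6) gave chromosomes for 99.1% of genes.

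Probe sets were tested with limma 3.58.1 in R 4.3.3 (lmFit, eBayes, no covariate, two-sided), with Benjamini-Hochberg adjustment over 45037 probe sets and a threshold of 0.05. The code was tested on simulated data. Alternatives were quantile, cyclic loess and median-centring normalization, an intensity trend with robust prior and a filter on dim probe sets. Others were averaging a gene's probe sets, adjustment over 1 probe set per gene and leaving out mice. A last one left out probe sets whose identifiers end in _x_at, _s_at or _a_at, which kept 31 of the 35 genes. Each mouse is taken as 1 sample, and 3 arrays per group limit the precision. Per-array values are given for the 12 genes with the smallest p and the brightest gene of each role, and for the wider list the 6 genes with the smallest p are named. The members, gene lists and this rule were chosen with earlier results of these data known. The count of genes with separate groups, the full origin recognition complex, the other subunits of named complexes and the array values of Pole were added after seeing the values.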

Additional observations from a re-analysis of the deposited data

How the results depend on the processing

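The count of replication genes called higher was 0 in all 15 alternatives to the fit described, and the count called lower was 0 except with the intensity trend and robust prior (2, Orc1 and Rrm2) and with the filter on dim probe sets (1, Orc1), settings that called 4.42% and 4.39% of all genes. They gave 7 and 4 replication genes with an unadjusted p under 0.05, the mean of a gene's probe sets gave 5, and median centring gave 1. The share of all genes at that p was not counted separately for the alternatives. The trend also called 2 genes of the wider list. Median centring gave 2 genes with all KO arrays below and 7 with all above, against 8.83% and 22.1% of all genes. Quantile normalization gave 10 with all below, against 12.6% of all genes, and 1 with all above, against 15.6%. Cyclic loess gave 13 with all below, against 14.1% of all genes, and 0 with all above, against 14.4%. With median centring the median of all genes was 0.073. Differences near 0 often turned or reached 0. Median centring turned the median difference to 0.043 and 13 genes to positive values: Pola1 0.013, Cdc6 0.023, Pcna 0.023, Mcm2 0.037, Rpa2 0.037, Gins1 0.040, Fen1 0.040, Lig1 0.043, Mcm4 0.050, Prim1 0.057, Mcm5 0.083, Mcm6 0.093 and Rpa1 0.097. Averaging a gene's probe sets turned 7: Cdc45 (-0.15), Tyms (-0.15), Rrm1 (-0.11), Mcm7 (-0.052), Rfc2 (-0.012), Mcm5 (0.0056) and Gins1 (0.11). Cyclic loess turned Mcm7 (-0.0045) and Rrm1 (-0.0035), and quantile normalization Rpa1 (0.013). Without probe sets ending in _x_at, _s_at or _a_at, 31 of the 35 genes were measured. Mcm5 was then at 0.053, Gins2 at -0.020 and Pold1 at 0. Leaving out 1 mouse gave 1 to 2 genes with an unadjusted p under 0.05. The count was 1, Orc1, without WT 497, WT 504, WT 550 or KO 551. All KO arrays lay below in 11 to 16 genes (16 without KO 548), where all genes gave 20.4% to 25.5%. They lay above in 0 to 1 genes (1 without KO 493), where all genes gave 15.3% to 17.5%. The median difference was -0.07 to -0.05. Without WT 497 and KO 493 together there was 1 gene with an unadjusted p under 0.05. There was 1 with all KO arrays above, where all genes gave 21.3%. Over these leave-outs, the pair included, differences that turned ranged from -0.070 to 0.020 (Mcm5), -0.050 to 0.035 (Mcm6), -0.022 to 0.028 (Mcm7), -0.0067 to 0.088 (Cdc45), -0.027 to 0.11 (Gins2), -0.010 to 0.12 (Gins3), -0.0050 to 0.13 (Pold1), -0.13 to 0.12 (Pole), -0.013 to 0.037 (Rfc2), -0.017 to 0.033 (Rfc5), -0.032 to 0.015 (Rpa1), -0.0050 to 0.025 (Rrm1) and -0.012 to 0.16 (Tyms). The causes of these changes were not tested. No paired analysis was made, since the titles give no pairing of KO with WT mice. Whether mice shared a litter or batch is not known from the titles. Signal limits the dim second probe set of Pola1.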
